A study of Mus musculus with 12 samples.

Results

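The lysosome genes described here are 38 of the 17358 genes in the deposited table, taken by symbol: soluble hydrolases and their lumenal cofactors (16 genes), lysosomal membrane proteins (8), subunits of the vacuolar proton pump (11) and the transcription factors Tfeb, Tfe3 and Mitf (3). Cathepsins are not among them. SMART-seq2 libraries, in which oligo-dT priming copies whole transcripts into cDNA, were prepared from perivascular macrophages of the brain of C57BL mice, the macrophages that lie along the vessels of the brain. There were 5 libraries from aged animals (18 months) and 7 from young adults (3 months), which the series text calls biological replicates. The protocol speaks of lysing single cells. The labels give no treatment, sex, sort marker or batch, nor the number of animals or cells behind a library, and the p-values therefore reflect library-to-library spread, which may be technical.

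Lysosomes are the acidic compartments in which macrophages break down engulfed proteins, lipids and glycans. The vacuolar ATPase, made of a cytosolic V1 part that burns ATP and a membrane Vo part that carries protons, acidifies the lumen so that the hydrolases work. Many lysosome genes are known to be controlled together by TFEB, TFE3 and MITF, related factors that bind an E-box motif (the CLEAR element) near the start of the gene. In perivascular macrophages, lysosomes are known for the breakdown of material taken up from the fluid around the vessels.

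Library totals ranged from 23214836 to 30628787 estimated counts. On these totals 3 counts, the upper limit that a count of 0 allows, corresponded to between 0.0979 and 0.129 CPM (counts scaled to a common library size). The normalised CPM below are also divided by TMM factors of 0.8644 to 1.243, which shift this floor. The 8 perivascular macrophage markers examined were present, with a summed level of 9103 to 14992 TMM-normalised CPM with age, against 10140 to 17618 in young libraries. Markers of microglia, the other resident macrophages of the brain, summed over 8 genes to 2886 to 4442 in aged and 2926 to 4965 in young libraries. The genes of this list differed. P2ry12 was at 407 normalised CPM or more in every library, Gpr34 at 778, Fcrls at 481, Siglech at 319 and Cx3cr1 at 131 or more. Olfml3 ran from 0.0954 to 167. Sall1 was at 0 in aged libraries 1, 2, 3 and 4 and young libraries 1 and 5, and Tmem119 in aged library 3 and young library 5. With the cells per library not given, fewer cells of a type and less RNA per cell cannot be told apart. Of the marker lists examined, the choroid plexus list was the 1 whose summed levels did not overlap between the ages: 199 to 1106 normalised CPM in the aged against 59.2 to 146 at the young age over 6 of 6 genes. Ttr made up most of it, and 2 of the 6 genes had at least 5 counts in 6 or more libraries. Kcnj13 was at 52.3, 72.6, 39.5, 38.9 and 0.0333 normalised CPM in aged libraries 1 to 5 and at most 2.61 in young ones. Clic6 reached 22.6 in aged and 0.391 in young libraries. Folr1 was at 0 in every library other than aged library 2. The part of choroid plexus transcripts in the values below was not tested. Endothelial markers summed to at most 4.3 normalised CPM in any aged library and 27.6 in any young one. Other lists reached higher sums. The highest aged and young sums were 165 and 88.8 for fibroblasts and 42.1 and 180 for erythroid cells. They were 29.6 and 89.6 for B cells, 82.5 and 33.1 for neurons and 78.8 and 72 for oligodendrocytes. Monocyte, neutrophil and astrocyte lists also exceeded 27.6, while T cell and pericyte lists stayed below it. The part of these transcripts in the values below was not tested either. On the first principal component (15.5% of the variance) the libraries aged 1, 3 and 4 were separated from the remaining 9, with scores of 76.0, 95.0 and 104.7 against −47.6 to −10.7, so the main counts are also given without them.

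Per length of transcript, the module was led by membrane proteins and pump subunits (the plot of FPKM by gene). Levels between genes are compared here in FPKM, which scales fragments by transcript length and library size. Cd63, a tetraspanin of late endosomes and lysosomes, had a median of 1811 FPKM over the 12 libraries (range 1336 to 2196), and Cd68, a heavily glycosylated lysosomal protein used as a macrophage marker, 1764 FPKM (1259 to 2854). The Vo subunits Atp6v0b and Atp6v0c, which form the proton-carrying ring, followed at 996 and 950 FPKM. Asah1, the acid ceramidase, was the first of the hydrolases at 730 FPKM, ahead of the V1 subunit Atp6v1g1 at 669 and of Hexa, the alpha subunit of beta-hexosaminidase, at 472. Lamp2 stood at 446 FPKM and Lamp1 at 268, the major glycoproteins of the lysosomal membrane. The ranges of all neighbours in this order overlapped. Cd68 was still above Atp6v0b in each of the 12 libraries, whereas Cd63 was above Cd68 in 5.

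**Figure D1:**
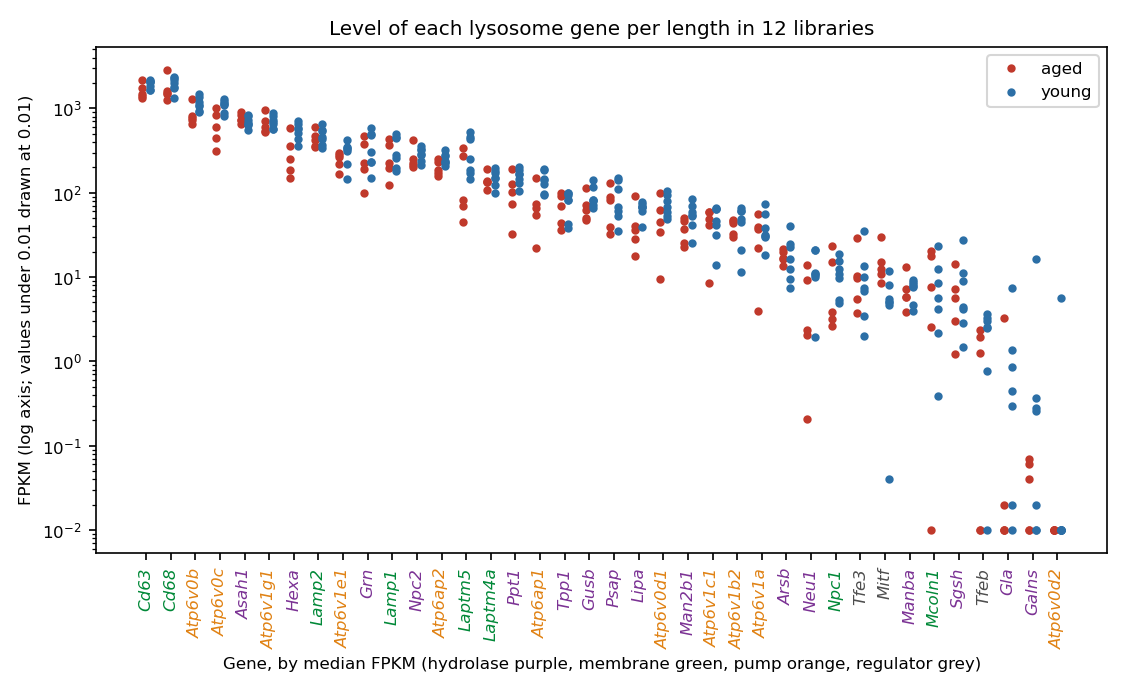
FPKM of the 38 lysosome genes (vertical log axis) in each of 5 aged (red) and 7 young (blue) libraries, genes ordered by their median over the 12 libraries. Cd63 (median 1811) and Cd68 (1764) stand at the top, and the transcription factors stand near the low end, with Tfeb at 2.13.

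The pump subunits differed widely in level although they belong to a single complex. Beside the Vo ring genes near 1000 FPKM, Atp6v0d1, the Vo subunit that links the ring to the stalk, had a median of 61.0 FPKM, and the V1 catalytic core genes Atp6v1a and Atp6v1b2 had 34.4 and 45.8. Atp6v1e1, a stalk subunit, stood at 290. Of the pump genes outside the module, Atp6v0e and Atp6v1f had 1100 and 784 FPKM, and the large Vo subunit genes Tcirg1 and Atp6v0a1 had 12.6 and 10.9. The second d isoform, Atp6v0d2, known for its high expression in osteoclasts, was seen in young library 5 alone (551 counts), the other 11 libraries holding 0. It failed the filter on low counts and was not tested.

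The hydrolases spanned a similar range. Behind Asah1 and Hexa came progranulin (Grn, 269 FPKM), the sterol carrier Npc2 (266), the thioesterase Ppt1 (137), the peptidase Tpp1 (81.6), the beta-glucuronidase Gusb (75.2), the saposin precursor Psap (75.0), the acid lipase Lipa (63.6) and the alpha-mannosidase Man2b1 (48.2). The rank of Npc2 rests on a long transcript, since its FPKM values imply 3202 bases where annotated transcripts of the gene run from 728 to 3299. For Neu1, Laptm4a and Atp6v0d2 the implied lengths (3794, 2065 and 3650 bases) exceed the longest annotated transcript (3619, 1773 and 2539), so their places in the order are less certain. The sulfatase Arsb (16.7 FPKM), the sialidase Neu1 (10.3), the beta-mannosidase Manba (7.42) and the sulfamidase Sgsh (5.06) were low. Gla, the alpha-galactosidase that cleaves globotriaosylceramide, and Galns, a sulfatase of keratan sulfate, were near the limit of detection, with medians of 0.16 and 0.05 FPKM. For Galns, which was not tested, 1188 of its counts came from young library 6, and no other library held more than 20.

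The transcription factors themselves were among the low members. Tfe3 had a median of 8.63 FPKM, Mitf 8.28 and Tfeb 2.13. Tfec, the fourth member of the family, which is known for its expression in macrophages, was at 34.0 FPKM, above each of the 3.

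The motif bound by these factors was searched in the promoters of the module, because the CLEAR element is known from many lysosome genes. RefSeq windows of GRCm38.p6, from 250 bases before to 50 bases after the start, were at hand for 31 of the 38 members. The letters TCACGTG, read on either strand (CACGTGA on the other), were present in 7 of these 31 (22.6%), against 4.29% of all 27025 genes with a window and 7.53% of the 7647 tested genes with one. They were also present in 16 of 68 other lysosome genes with a window (23.5%). All 7 lie among the hydrolases (2 of 14), membrane proteins (2 of 7) and pump subunits (3 of 7), and none of the 3 transcription factors held the letters. The shorter core CACGTG, which TCACGTG contains, was found in the same 7 members and in 8.09% of all genes. A longer form, TCACGTG extended by further bases on both sides, was also searched. It was found in 0 of the 31 members, in 2 of the 68 other lysosome genes and in 0.37% of all genes. The variant TCATGTG, read on either strand, was found in 5 members (16.1%) and 4.31% of genes. A match describes letters in a window and not a bound site.

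The stretches that hold these letters are printed to show how they are arranged, each 5′ to 3′ on the strand of its gene with the matches to TCACGTG (to TCATGTG for Atp6v0c) in capitals and 15 bases on either side where they lie before the start. Lamp1 (chr8:13159084-13159160, plus strand) carries 4 separate sites between 62 and 16 bases before the start. Mcoln1 (chr8:3500432-3500495, plus), Gla (chrX:134601178-134601248, minus) and Atp6v0b (chr4:117887330-117887381, minus) carry 2 sites each. Sgsh (chr11:119355518-119355554, minus), Atp6v1a (chr16:44139369-44139406, minus) and Atp6v0d1 (chr8:105566061-105566083, minus) carry 1, that of Atp6v0d1 reaching across the start. Atp6v0c (chr17:24169451-24169482, minus) is shown for the variant TCATGTG at 17 bases before a start, as the pump gene among the 5 members with the variant. The Gla stretch also holds the variant, left in lower case. Coordinates are GRCm38.p6, and the starts are those of RefSeq transcripts, which for Atp6v0b, Atp6v0c and Atp6v1a lie inside the gene's outermost bounds.
Lamp1: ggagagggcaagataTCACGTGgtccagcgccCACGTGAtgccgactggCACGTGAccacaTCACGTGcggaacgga
Mcoln1: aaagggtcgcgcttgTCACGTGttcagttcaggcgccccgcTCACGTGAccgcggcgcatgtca
Gla: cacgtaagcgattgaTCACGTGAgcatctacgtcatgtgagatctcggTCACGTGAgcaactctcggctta
Sgsh: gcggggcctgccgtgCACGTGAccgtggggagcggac
Atp6v1a: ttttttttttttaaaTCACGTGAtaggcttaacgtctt
Atp6v0b: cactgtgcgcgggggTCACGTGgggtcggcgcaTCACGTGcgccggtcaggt
Atp6v0d1: caggccctactgcggTCACGTGA
Atp6v0c: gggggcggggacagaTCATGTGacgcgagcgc

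The comparison the design implies is that of aged with young libraries. None of the 36 tested members passed edgeR's quasi-likelihood test at an adjusted p under 0.05 over all 9550 tested genes, in either direction, beside a background of 0.0105% of all genes called. The lowest adjusted p among members was 0.589 (Hexa). Of the members, 0 were also called by DESeq2 (background 1.27%), by limma with voom weights (0.0209%) and by edgeR's bias-adjusted estimation (0.398%). At an unadjusted p under 0.05, 3 members were lower in aged libraries (Hexa, Atp6v0c and Atp6ap1) and 0 were higher, against 2.12% of all genes lower, 3.85% higher and 5.97% in either direction. No member had groups that did not overlap (background 0.597%). Of the 36 members, 26 had log2 fold changes (aged minus young) below 0, with a median of −0.17, whereas the 9550 tested genes had 4826 below 0 and a median of −0.01. Scaled by library totals alone, 31 of 36 members were below 0 (median −0.28) and the median of all genes moved to −0.13.

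**Figure D2:**
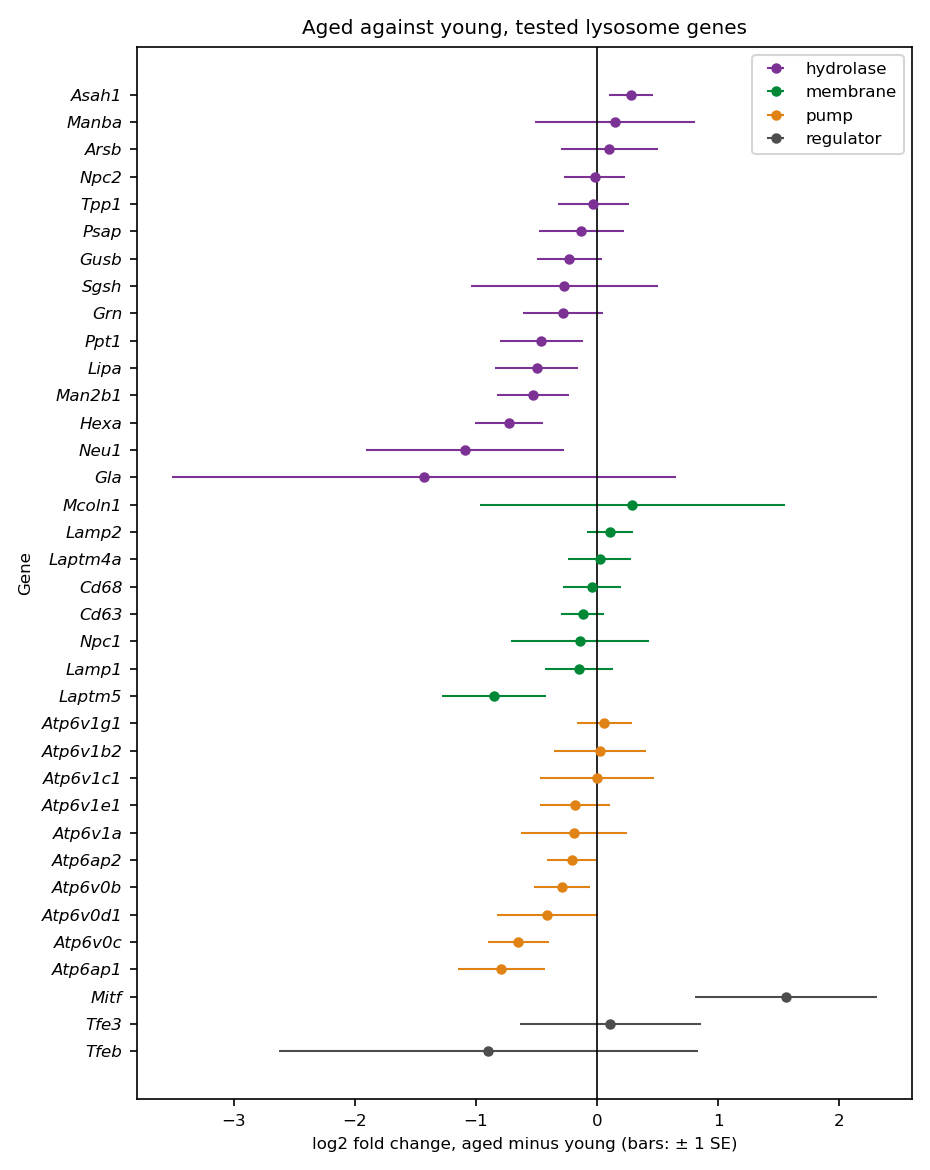
Log2 fold change of each tested lysosome gene, aged minus young (points), with 1 standard error on either side (bars), by sub-class. No gene passed the test, and the estimates run from −1.43 for Gla to 1.56 for Mitf.

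Counts by sub-class were as follows. In the hydrolase class 12 of 15 tested members were below 0 (median −0.27), among membrane proteins 5 of 8 (median −0.08), in the pump 8 of 10 (median −0.20) and among the transcription factors 1 of 3 (median 0.11). Within the pump, the 5 V1 genes lay close to 0, from −0.19 to 0.06, while the 3 tested Vo genes lay between −0.65 and −0.29 and the accessory subunits Atp6ap1 and Atp6ap2 at −0.79 and −0.21. Whether the sub-classes differ from each other was not tested. Without aged libraries 1, 3 and 4 the module had 20 of 37 tested members below 0 (median −0.05), with a median of −0.09 over all genes in the same fit. The hydrolase median was then −0.02, the membrane median 0.04, the pump median −0.19 and the transcription factor median 0.69. Without aged library 2 the hydrolase and membrane medians were −0.58 and −0.23, and the transcription factor median ran from −0.43 without aged library 5 to 0.78 without young library 7.

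The members did not move as a block across the aged libraries (the plots of every gene and of the class medians by library). In aged libraries 3 and 4, 28 of 36 members lay below the median of the young libraries, in aged library 5 it was 23 and in aged library 1 it was 21. Aged library 2 went the other way, with 11 members below. Of all tested genes, 53.5% were below the young median in each of aged libraries 3 and 4, 48.5% in aged library 5, 54.3% in aged library 1 and 49.4% in aged library 2, so that the 21 of 36 members in aged library 1 were close to the share of all genes. Values below all 7 young libraries were found for 12 members in aged library 3, 10 in each of aged libraries 4 and 5, 8 in aged library 1 and 0 in aged library 2. The share of all tested genes below every young library was 15.4%, 15.8%, 10.9%, 15.3% and 9.28% in that order. Values above all young libraries were found for 8 members in aged library 2, where 11.6% of all tested genes were above. In aged libraries 1, 3, 4 and 5 they were found for 4, 3, 4 and 1 members, where the shares of all genes were 17.3%, 19.7%, 19.8% and 15.6%.

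**Figure D3:**
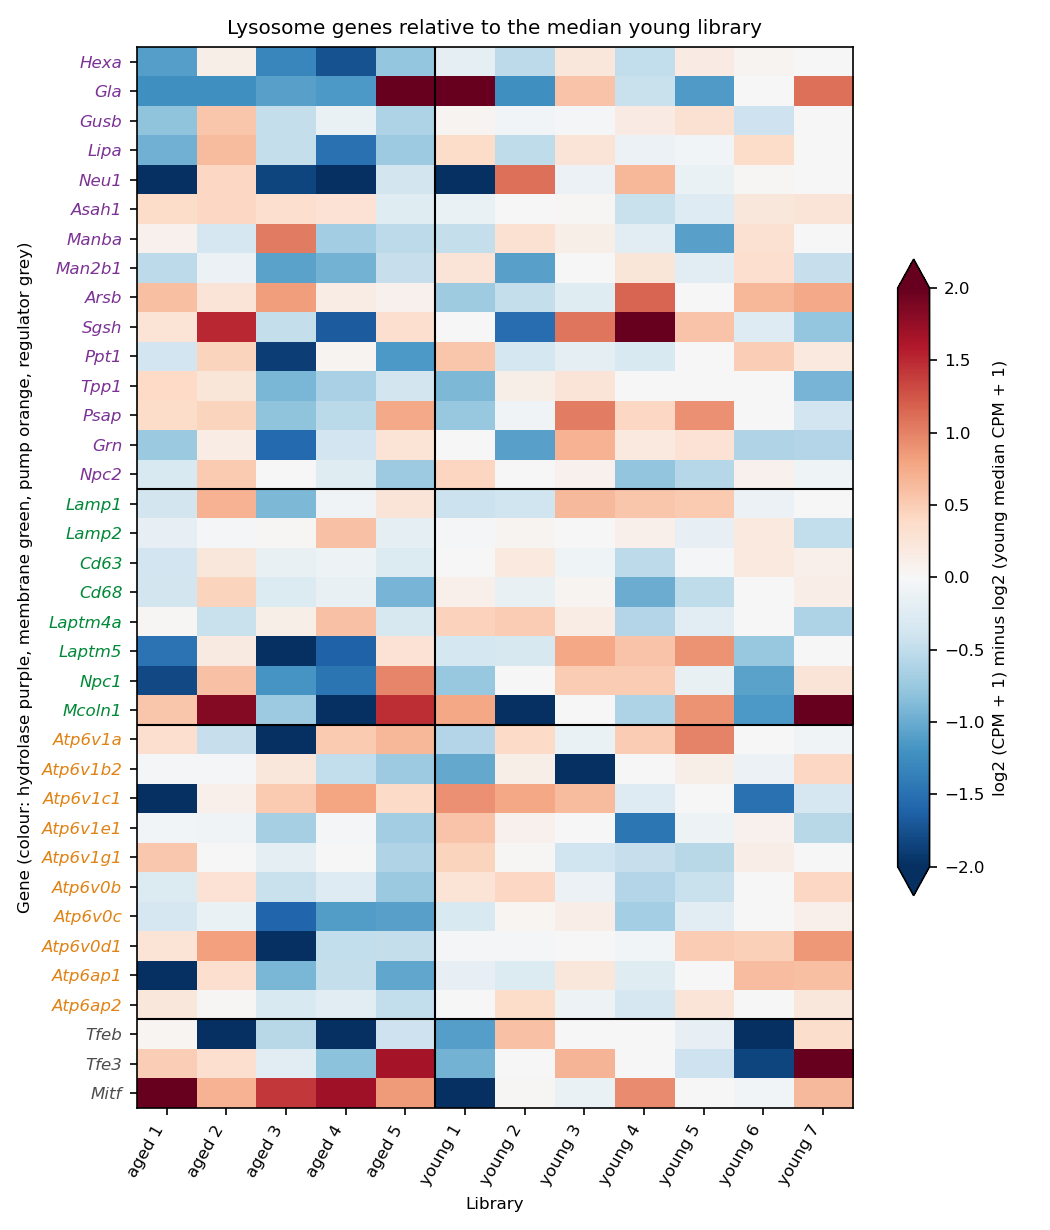
Level of each of the 36 tested genes (rows) in each library (columns) as log2 (CPM + 1) minus the same of the young median; blue is lower and red higher, and colours stop at 2 on either side. Aged library 2 differs from the other aged libraries, with 11 genes below the young median against 21 to 28.

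The class medians by library show which sub-class was low where. In the hydrolase class the median log2 level relative to the young median was −0.38, 0.42, −0.80, −0.65 and −0.36 in aged libraries 1 to 5, and between −0.35 and 0.11 in young libraries. The pump gave −0.05, 0.00, −0.56, −0.24 and −0.64 in the aged libraries and −0.30 to 0.16 in the young ones. The membrane class gave −0.36, 0.34, −0.50, −0.13 and 0.04 against −0.22 to 0.11. Aged values thus reached below the young range in 4 libraries for the hydrolases, 2 for the pump and 2 for the membrane class. Of the 4 hydrolase values, −0.38 and −0.36 lay close to the lowest young value of −0.35. The median of all tested genes was −0.14, 0.01, −0.11, −0.12 and 0.03 in aged libraries 1 to 5 and 0 in young ones. Summed over the 3 tested Vo genes, the level was 1660 ± 556 normalised CPM (aged, SD, n = 5) against 2290 ± 443 (young, SD, n = 7). The Vo sums overlapped, from 1161 to 2509 in aged and 1521 to 2822 in young libraries, and came mostly from Atp6v0b and Atp6v0c. Atp6v0e, a Vo gene outside the module, is not in them (793 ± 159 against 866 ± 305). The sum of the 5 V1 genes was 1367 ± 255 and 1392 ± 264.

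**Figure D4:**
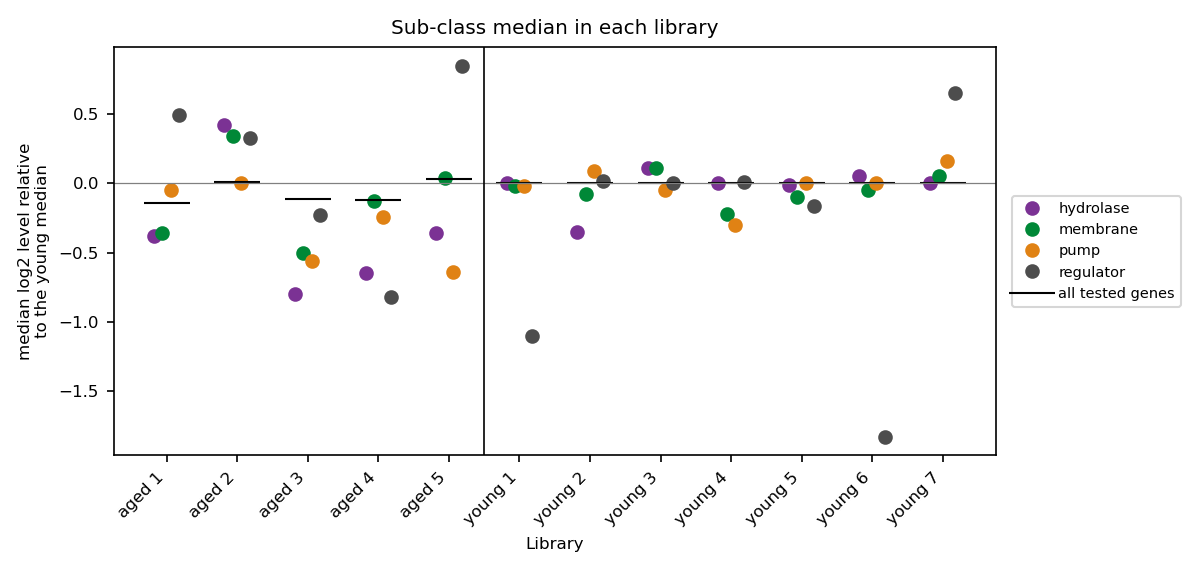
Median over the tested members of each sub-class of the log2 level relative to the young median, in each library, with the median of all tested genes as a black dash. Hydrolases lie between −0.80 and −0.36 in 4 aged libraries and at 0.42 in aged library 2.

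Among the hydrolases, Hexa (chromosome 9, 59539540 to 59565109), whose product takes part in the breakdown of the ganglioside GM2, had 448, 1049, 389, 289 and 563 normalised CPM in aged libraries 1 to 5. In young libraries it lay between 670 and 1128 with a median of 964. Thus on this scale 4 of 5 aged libraries were below every young library and aged library 2 was among the high ones. In FPKM, aged library 5 (363) was not below the lowest young library (362). The means were 548 ± 297 (SD, n = 5) and 910 ± 181 (SD, n = 7), with a log2 fold change of −0.73 ± 0.28 (SE). Without aged library 2 it was −1.10 and Hexa passed (edgeR quasi-likelihood adjusted p = 0.033), the single member called in that fit beside 0.755% of all genes. Without aged libraries 1, 3 and 4 it was −0.17 (adjusted p = 1 by the same edgeR test).

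Asah1, which breaks down ceramide, stood on the other side. Aged libraries 1 to 5 had 1954, 2023, 1899, 1851 and 1275 normalised CPM, and young libraries ran from 1110 to 1806 with a median of 1516. On this scale 4 of 5 aged libraries were above every young one and aged library 5 lay inside the young range. In FPKM, aged libraries 1 to 5 had 826, 907, 733, 726 and 654, against 560 to 834 in young ones. Aged library 2 alone was then above every young library. The log2 fold change was 0.28 ± 0.18 (SE), and it stayed between 0.14 and 0.39 over the 21 alternatives run.

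Neu1, the sialidase that trims glycoproteins and gangliosides, had 8.49, 53.6, 10.4, 0.906 and 30.8 normalised CPM in the aged libraries and 8.44 to 86.1 in the young ones (median 39.8). Low values occurred in both groups, in aged libraries 1, 3 and 4 and in young library 1, and the groups overlapped (log2 fold change −1.09 ± 0.82, SE). The estimate was −1.81 without aged library 2 and −0.08 without aged libraries 1, 3 and 4. Gla had 0, 0, 2, 1 and 261 counts in the aged libraries and between 0 and 675 in the young ones. Its level was thus set by single libraries in both groups, and its log2 fold change of −1.43 ± 2.08 (SE) ran from −6.91 to 0.26 as single libraries were left out.

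The lipid and protein hydrolases Lipa and Ppt1 were each below every young library in 3 aged libraries. The mean of Lipa was 129 ± 81.4 normalised CPM (SD, n = 5) with age and 182 ± 37.7 (SD, n = 7) in the young, and Ppt1 271 ± 152 and 373 ± 98.1. Without aged library 2 their log2 fold changes of −0.50 and −0.46 were −0.95 and −0.76, and without aged libraries 1, 3 and 4 they were 0.04 and −0.24. Man2b1 was at 120 ± 32 and 172 ± 52.3, with all 5 aged libraries below the young median. Ppt1 and Sgsh share exon bases with the genes Cap1 and Card14 on the opposite strand, and reads from such partners cannot be told apart in these libraries. Cap1 had means of 9.34 (aged) and 10.6 (young) normalised CPM. Hexa, Arsb, Grn, Lamp1, Npc1, Atp6v1e1 and Atp6v0b also share exon bases with genes on the opposite strand. The shared stretch was 32 bases for Atp6v1e1 and 1948 for Arsb with the partner Gm26527. Gusb, Tpp1, Manba, Arsb and Sgsh had log2 fold changes between −0.27 and 0.15.

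The lumenal cofactors had log2 fold changes between −0.28 and −0.02. Psap, the precursor of the saposins that present lipids to hydrolases, had 224, 236, 98.7, 119 and 291 normalised CPM in the aged libraries and 102 to 352 in the young ones, with a median of 173. Both groups held low and high libraries and they overlapped (log2 fold change −0.13 ± 0.35, SE). Grn was at 626 ± 280 (SD, n = 5) against 758 ± 314 (SD, n = 7) and Npc2 at 897 ± 300 against 909 ± 247 normalised CPM.

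Among membrane proteins, Lamp1 had 461, 965, 320, 566 and 712 normalised CPM in aged libraries 1 to 5 and 440 to 937 in young libraries, with a median of 595. The lowest and the highest of the 12 values were both aged, and the log2 fold change was −0.15 ± 0.28 (SE). Lamp2, Cd63, Cd68 and Laptm4a had estimates between −0.12 and 0.11. Lamp2 was the member with the smallest relative spread in young libraries, a coefficient of variation of 14.5%, and Cd63 in aged ones, 16.6%.

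Laptm5, a lysosomal membrane protein of blood cells that takes part in receptor turnover, had the lowest log2 fold change of this class. It had 209, 660, 127, 190 and 711 normalised CPM in the aged libraries and 344 to 1089 in the young ones (median 583). Aged libraries 1, 3 and 4 were below every young library and aged libraries 2 and 5 were inside the young range. The log2 fold change was −0.85 ± 0.43 (SE, edgeR adjusted p = 0.891) and 0.00 without those 3 libraries. Npc1, which exports cholesterol from the lysosome, was at 14.5, 23.1 and 18.8 normalised CPM in aged libraries 1, 3 and 4, below every young library, and at 80.3 and 107 in aged libraries 2 and 5, above every young library (25 to 76.9). Its log2 fold change was −0.14, and 0.80 without aged libraries 1, 3 and 4. Its exons overlap those of Rmc1 on the opposite strand. Mcoln1, a calcium-permeable channel of the lysosome, had 15.8, 40.1, 5.93, 0 and 30.7 normalised CPM in aged libraries 1 to 5 against 0.818 to 45 among the young, with a median of 10.5. Both groups held libraries near 0, and the log2 fold change was 0.29 ± 1.26 (SE).

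In the Vo part of the pump, Atp6v0c (chromosome 17, 24163865 to 24169678), the main proton-carrying subunit, had 972, 1120, 406, 569 and 580 normalised CPM in the aged libraries and 765 to 1354 in the young ones, with a median of 1228. All 5 aged libraries were below the young median and aged libraries 3, 4 and 5 below every young library. The means were 729 ± 302 (SD, n = 5) and 1141 ± 210 (SD, n = 7), with a log2 fold change of −0.65 ± 0.25 (SE) and an adjusted p of 0.593 by edgeR's quasi-likelihood test. The estimate was −0.85 without aged library 2 and −0.42 without aged libraries 1, 3 and 4. Annotated pseudogenes of Atp6v0c may share its reads. Atp6v0b was at 850 ± 235 against 1042 ± 276 normalised CPM.

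Atp6v0d1 had 106, 155, 17.3, 62.3 and 62.5 normalised CPM in the aged libraries, against 84.4 to 161 in the young ones (median 87.7). Aged libraries 3, 4 and 5, the same 3 as for Atp6v0c, were below every young library, and the other aged libraries were inside the young range. The log2 fold change was −0.41 ± 0.42 (SE), −0.79 without aged library 2, −0.17 without aged library 3 and 0.03 without aged libraries 1, 3 and 4. Its isoform Atp6v0d2 had 0 counts in every aged library.

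The accessory subunit Atp6ap1 (chromosome X, 74297097 to 74304721), which helps assemble the Vo part, had 52.0, 328, 136, 186 and 125 normalised CPM in the aged libraries and 212 to 398 in the young ones (median 259). As for Hexa, 4 of 5 aged libraries were below every young library and aged library 2 was inside the young range. The log2 fold change was −0.79 ± 0.36 (SE, edgeR adjusted p = 0.785), −1.20 without aged library 2 and −0.33 without aged libraries 1, 3 and 4. Atp6ap2, the prorenin receptor, was at 491 ± 98.1 (SD, n = 5) against 567 ± 93.2 (SD, n = 7).

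The V1 genes had means close to each other in the 2 groups. Atp6v1g1 was at 732 ± 214 normalised CPM against 700 ± 183 (aged against young), Atp6v1e1 at 300 ± 67.4 against 340 ± 126 and Atp6v1c1 at 93.7 ± 46.2 against 93.9 ± 45.8 (SD, n = 5 and n = 7). Atp6v1a, the catalytic subunit, was at 18.0 normalised CPM in aged library 3 and between 88.8 and 194 in the other aged libraries, against 81.2 to 245 in young ones. Atp6v1b2 was at 29.3 in young library 3 and between 63.3 and 172 in the others.

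**Figure D5:**
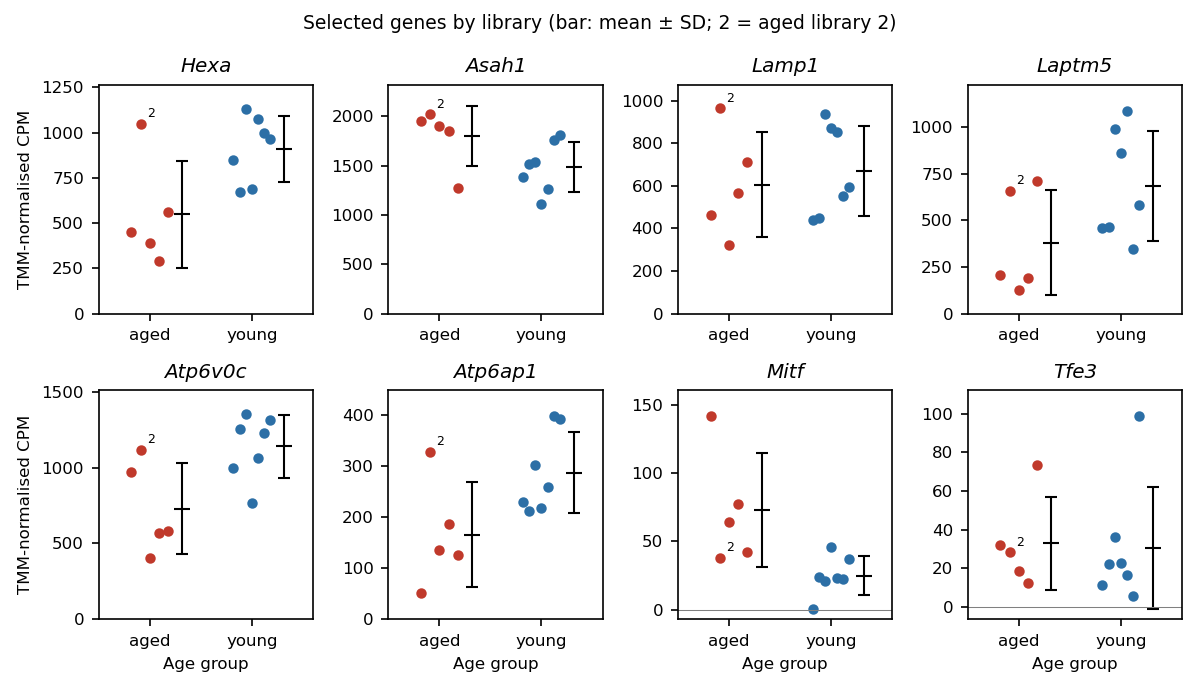
TMM-normalised CPM of 8 members in each aged (red) and young (blue) library, with mean ± SD beside the points; 2 marks aged library 2. Hexa and Atp6ap1 have 4 aged libraries below every young one, Asah1 has 4 above, and all 5 aged values of Mitf are at or above 38.2.

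Of the transcription factors, Mitf (chromosome 6, 97807002 to 98021360) had the highest log2 fold change of the module. The aged libraries held 142, 38.2, 64.2, 77.8 and 42.6 normalised CPM, and the young ones ran from 0.184 to 46.0 with a median of 23.3. Aged libraries 1, 3 and 4 were above every young library, and aged libraries 2 and 5 were inside the upper part of the young range. The means were 73.0 ± 41.8 (SD, n = 5) and 24.8 ± 14.3 (SD, n = 7), a ratio of 2.94. The log2 fold change of 1.56 ± 0.75 (SE) did not pass (edgeR adjusted p = 0.845), and it stayed above 0 in all 21 alternatives, from 0.69 without aged libraries 1, 3 and 4 to 2.08. Young library 1, with 5 counts, was far below the others.

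Tfeb had 129, 0, 62, 0 and 106 counts in the aged libraries and between 0 and 226 in the young ones, so that libraries without a count occurred in both groups. The normalised levels were 5.17, 0, 3.09, 0 and 3.53 CPM in aged libraries and 0 to 8.03 in young ones, with a median of 5.01, and the log2 fold change was −0.90 ± 1.73 (SE). Tfe3 had 31.9, 28.5, 18.9, 12.3 and 73.6 normalised CPM in aged libraries and 5.58 to 98.9 in young ones, with a median of 22.4. Its groups overlapped over most of their range (log2 fold change 0.11 ± 0.75, SE).

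The spread between libraries was wider in the aged group for most members. The coefficient of variation was higher in aged than in young libraries for 25 of 36 members, with medians of 43.5% and 30.7%. Over all tested genes these medians were 86.6% and 72.8%, and over the 1502 genes with a mean of at least 100 CPM they were 37.8% and 30.7%, against 36.9% and 26.8% for the 24 members at that level. The median log2 fold change was −0.27 for the 7 members with TCACGTG in the promoter and −0.19 for the 24 others with a promoter window, and the ranges overlapped.

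A list of 85 other lysosome genes gave the same count of 0 calls by edgeR among its 72 tested genes. It had 50 members below 0 (median −0.28). Of the genes classed with the hydrolases, among which Glmp and Hgsnat were counted, 16 of 25 were below. So were 14 of 20 membrane and sorting proteins, 9 of 12 pump genes and 11 of 15 regulators. At an unadjusted p under 0.05, Glmp, Creg1, Dnase2a and Lamtor1 were lower and Hgsnat was higher in aged libraries, 5 of 72 genes beside 5.97% of all genes. Glmp, a lysosomal membrane glycoprotein, was the 1 gene of the list whose groups did not overlap (0.597% of all genes), at 55.6 ± 18.4 normalised CPM (aged, SD, n = 5) against 129 ± 53.4 (young, SD, n = 7), and it was named after its values were seen. Its log2 fold change was −1.21 (edgeR adjusted p = 0.329), and DESeq2, which called 1.27% of all genes, called it. Among genes named for their role, the beta-galactosidase Glb1 was at 28.4 ± 43.4 normalised CPM (aged, SD, n = 5) against 36.5 ± 26.6 (young, SD, n = 7) and the membrane protein Scarb2 at 80.8 ± 33.3 against 76.0 ± 45.1. The pump genes Tcirg1 and Atp6v1d were at 21.6 ± 14.5 against 46.5 ± 22.9 and 144 ± 35.2 against 153 ± 43.6, and Tfec at 66.9 ± 32.6 against 49.3 ± 17.9. Of the other pump genes of this list, the V1 gene Atp6v1f was at 417 ± 121 against 583 ± 221 (log2 fold change −0.49 ± 0.30, SE). The Vo genes Tcirg1, Atp6v0a1, Atp6v0e and Atp6v0a2 had log2 fold changes of −1.11 ± 0.85, −0.80 ± 0.76, −0.13 ± 0.25 and 1.4 ± 1.9 (SE). Atp6v0a2 was at 31.4 and 19.2 normalised CPM in aged libraries 1 and 2 and at most 0.1 in the other aged libraries. Its young values ran from 0.034 to 18.9, with a median of 0.479.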

How the data were processed

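The authors deposited 1 table of 17358 genes with estimated counts per gene and library. Per the submitters' processing notes the tools were RSEM 1.2.12, DESeq2 1.4.5, HISAT2 2.0.4 and Bowtie2 2.2.5, on GRCm38; their roles and the gene models are not stated there. The table also holds values deposited by the authors without a unit, read here as FPKM because they imply the same transcript length for a gene in each library (median coefficient of variation 1.7% over 1370 genes). The labels' protocols describe no step that marks strand or molecule. Floors cover counting error only.

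Estimated counts (88.2% to 90.6% whole) were rounded. They were tested with edgeR 4.0.16 in R 4.3.3 (TMM factors, filterByExpr, legacy robust quasi-likelihood estimation, Benjamini-Hochberg over 9550 genes, threshold 0.05), and 36 of the 38 members passed the filter. The standard error comes from the F statistic. The function was tested on simulated data. DESeq2 1.42.0, limma 3.58.1, other scalings, log2(FPKM + 1) and omission of libraries were alternatives. No pair of libraries of a group agreed within sampling noise. Symbols damaged in the table (23) were replaced through Entrez identifiers. Coordinates and promoters are RefSeq, GRCm38.p6, and exon overlaps GENCODE M21.

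Members and lists were chosen with earlier results of these data known. Named are all 38 members, with each aged value for the 3 lowest and 3 highest tested log2 fold changes and for Lamp1, Hexa, Psap, Tfeb, Tfe3, Mitf, Atp6v0d1 and Atp6v0d2, and genes of the further list chosen by role, of which some are not reported here. The values of Atp6v0c, Atp6ap1, Laptm5 and Npc1 were added after they were seen. Marker lists covered perivascular macrophages, microglia, monocytes, neutrophils, T and B cells, endothelium, pericytes, fibroblasts, astrocytes, oligodendrocytes, neurons, choroid plexus and erythroid cells.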

Additional observations from a re-analysis of the deposited data

Results flagged for a closer look

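A sample far from the rest of its group was looked for in the normalised CPM of each member and age group (76 groups), by Dixon's criterion, which flags about 1 in 20 groups by chance. It marked 7 groups. Gla was at 8.7 in aged library 5, with the next aged library at 0.0997, and at 24.9 in young library 1, with the next at 4.0. Galns was at 40.4 in young library 6 (next 0.633) and Atp6v0d2 at 17.4 in young library 5 (next 0). Tfe3 was at 98.9 in young library 7 (next 36.5). Lamp2 was highest in aged library 4, at 1729 (next 1169). Asah1 was lowest in aged library 5, at 1275, with the other aged libraries at 1851 or more.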

How the results depend on the processing

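No member was called under any of the 21 alternatives run, except Hexa without aged library 2. Leaving out single libraries gave 0 to 1 member and 0 to 75 genes called in all, the 75 without aged library 2. Over all genes the count of 1 became 3 with library totals alone, 13 without the low-count filter, 38 with edgeR's bias-adjusted estimation, 121 with DESeq2, 2 with voom, 6 on log2(FPKM + 1) and 0 without aged libraries 1, 3 and 4, an alternative chosen after seeing the data. DESeq2 called 1 gene of the further lysosome list. Of 36 members, 13 kept their direction throughout, and 86 of 756 values changed sign; the cause was not tested. Without aged libraries 1, 3 and 4 the log2 fold changes that changed sign were Gusb 0.08, Lipa 0.04, Manba −0.36, Arsb −0.15, Sgsh 0.45, Tpp1 0.11, Psap 0.30, Grn 0.25, Npc2 0.11, Lamp1 0.32, Lamp2 −0.07, Cd63 0.00, Cd68 0.07, Laptm4a −0.40, Npc1 0.80, Atp6v1b2 −0.14, Atp6v1c1 0.04, Atp6v1g1 −0.20 and Atp6v0d1 0.03. With library totals alone they were Arsb −0.09, Lamp2 −0.03, Laptm4a −0.10, Atp6v1b2 −0.15 and Atp6v1g1 −0.05, and on log2(FPKM + 1) Manba −0.05, Lamp2 −0.13, Laptm4a −0.11 and Atp6v1g1 −0.09. RLE size factors and DESeq2 each gave Laptm4a −0.03 and Atp6v1b2 −0.02, and voom gave Mcoln1 −0.66. Leaving out single libraries gave Gla −6.91 to 0.26, Manba −0.28 to 0.28, Arsb −0.06 to 0.30, Sgsh −0.82 to 0.27, Tpp1 −0.24 to 0.09, Psap −0.34 to 0.03, Npc2 −0.22 to 0.09, Lamp2 −0.06 to 0.15, Cd68 −0.25 to 0.08, Laptm4a −0.17 to 0.12, Npc1 −0.66 to 0.08, Mcoln1 −0.20 to 0.86, Atp6v1a −0.43 to 0.06, Atp6v1b2 −0.15 to 0.15, Atp6v1c1 −0.21 to 0.23, Atp6v1g1 −0.14 to 0.16 and Tfe3 −0.43 to 0.78. With the replicate number as a block, 1 gene and 0 members were called, and Npc2 (0.02), Cd68 (0.04), Laptm4a (−0.08) and Mcoln1 (−0.19) changed sign. Same-numbered libraries correlated at −0.041 to 0.094 over 5 numbers, and 0 were closest to their own number. They were not treated as pairs in the main test, and whether they share a batch was not tested. Gla, Galns, Mcoln1, Atp6v0d2 and Tfeb had libraries without a count, where a level under that of 3 counts was not detectable.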
